A study of Homo sapiens with 10 samples.

Results

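The genes described here were the cytosolic chaperones and the J-domain proteins that work with them, as named by their symbols. A gene was taken where it had a protein-coding transcript and a symbol of the HSPA, HSPB, DNAJA, DNAJB, DNAJC or CCT series or of HSP90A, or was TCP1, HSPD1, HSPE1 or HSPH1, and the chaperones of the endoplasmic reticulum HSPA5, HSPA13, DNAJB9, DNAJB11 and DNAJC3 were left out. This gave 77 of the 19655 genes with a protein-coding transcript, of which 63 were abundant enough to be tested among 11640 tested genes. The name of the group is broader than its members, since 7 of them (HSPA9, HSPD1, HSPE1, DNAJA3, DNAJC11, DNAJC15 and DNAJC19) belong to mitochondria and 5 (DNAJB12, DNAJB14, DNAJC1, DNAJC10 and DNAJC16) to the membrane or lumen of the endoplasmic reticulum.

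HSP70 proteins bind short hydrophobic stretches of unfolded proteins and release them in a cycle driven by ATP. J-domain proteins bring clients to HSP70 and stimulate its ATPase, and the HSP110 type proteins exchange the nucleotide that resets it. HSP90 matures kinases, steroid receptors and other signalling proteins, small heat shock proteins hold unfolded proteins without ATP, and the ring-shaped chaperonins TRiC and HSPD1 enclose their clients, which for TRiC include actin and tubulin. Under heat or other protein damage the transcription factor HSF1 raises many of these genes together through heat shock elements in their promoters.

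All libraries came from Caco-2, a human colon carcinoma line, in which a stable clone carrying dCas9-KRAB, a Cas9 that does not cut and is fused to a repressor domain, had been infected with lentivirus. The virus carried an empty guide plasmid in gCtl (n = 5), guide g1 in 3 libraries or guide g2 in 2 libraries, both guides being directed at the long non-coding RNA LHFPL3-AS2, and the plasmid had a U6 promoter and a hygromycin gene in every group. The study asked what depletion of LHFPL3-AS2 does to these cells. Every comparison therefore concerned derivatives of 1 clone, the labels do not say that the libraries of a group came from separate cultures, and p-values measure the spread between these libraries. Reads were QuantSeq reads from the 3′ ends of polyadenylated RNA. Levels are given as CPM, estimated counts scaled to a common library size by the TMM method, with estimated counts of 3838803 to 8730468 per library, of which the 77 genes took 0.88% to 1.19%.

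The RNA that the guides were directed at was checked first. LHFPL3-AS2 (chr7:104894628-104926645 on GRCh38, minus strand) stood at 1.73, 0.841, 3.73, 1.73 and 3.12 RPM (reads scaled to the library total) in the gCtl libraries, 3.07, 3.95 and 2.03 in the g1 libraries and 2.16 and 6.01 in the g2 libraries. The groups overlapped, and the mean was higher, not lower, in the libraries labelled knockdown, by 0.47 on the log2(RPM + 1) scale, with p = 0.191 in an exact two-sided permutation test. The paper, by contrast, reported from qPCR that LHFPL3-AS2 was reduced with each guide relative to gCtl. Its counts in the present reads were few, 4.39 in the lowest library and 44 in the highest, and give little precision. The reads therefore neither show the reduction nor exclude it. For this reason the groups are called the libraries labelled g1 and g2, and no direction is referred to a loss of LHFPL3-AS2. Of 12 markers of Caco-2 cells, 10 had a median above 3 RPM, whereas the enterocyte genes SI and ALPI were near 0. Of 8 markers of blood, stromal and endothelial cells, 5 had a median of at most 3 and PDGFRA (10.8), COL1A1 (5) and PECAM1 (3.37) lay above. The summed level of the 8 was 20.5 to 41.1 RPM in gCtl, 16.5 to 27.9 in g1 and 9.09 to 14.5 in g2, so that g2 lay under gCtl without overlap, and its part in the g2 differences was not tested. For HSPA8, HSPE1 and some other genes described below, though not for all, the gCtl library numbered 5 resembled the libraries labelled knockdown in how reads were divided among transcripts. Over all tested genes, those with short transcripts were lower in the libraries labelled knockdown.

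Heat shock elements are repeats of GAA and its complement TTC in alternating orientation. A longer motif of 3 repeats (GAA, TTC and GAA, or TTC, GAA and TTC, each 2 bases apart), which contains the shorter motif GAANNTTC or TTCNNGAA of 2 repeats, was looked for on both strands in windows from 250 bases before to 50 after each RefSeq gene start on GRCh38.p14. Windows were found for 68 of the 77 genes. The longer motif was in 7 of their 89 windows (7.87%) and in 0.49% of all 35116 windows, and the shorter one in 27 (30.3%) against 13.5%. The matches are shown because these genes are the classical targets of the heat shock response, and 30 bases are given for each, with the repeats in capitals (those at the edge of the 30 bases may be cut) and positions counted from the gene start. The lines for DNAJB1, HSPB1, HSPA1A and HSPA1B show matches of the shorter motif only, and the other lines show the longer one.
HSPA8, chr11:123062170-123062199, minus strand, match from base -55: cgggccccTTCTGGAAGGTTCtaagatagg
HSP90AA1, chr14:102087111-102087140, minus strand, match from base -88: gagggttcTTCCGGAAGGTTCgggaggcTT
HSP90AB1, chr6:44247823-44247852, plus strand, match from base -112: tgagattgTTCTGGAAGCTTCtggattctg
HSPD1, chr2:197500061-197500090, minus strand, match from base -245: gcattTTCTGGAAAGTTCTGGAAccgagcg
DNAJA1, chr9:33025268-33025297, plus strand, match from base 3: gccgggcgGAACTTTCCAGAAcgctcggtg
DNAJB6, chr7:157336865-157336894, plus strand, match from base -131: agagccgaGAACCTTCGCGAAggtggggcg
DNAJB1, chr19:14518456-14518485, minus strand, match from base -77: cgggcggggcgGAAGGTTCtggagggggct
HSPB1, chr7:76302480-76302509, plus strand, match from base -182: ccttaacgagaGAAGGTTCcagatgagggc
HSPA1A, chr6:31815426-31815455, plus strand, match from base -106: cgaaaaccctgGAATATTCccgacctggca
HSPA1B, chr6:31827622-31827651, plus strand, match from base -105: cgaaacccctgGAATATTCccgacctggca
HSPA8 and HSP90AB1 each held a second match of the longer motif, and HSPA6 held 1. DNAJB1 held further matches of the shorter motif, from bases -47 and 1. The HSPD1 window lies where the annotated exons of HSPD1 and of its neighbour HSPE1 overlap. The 7 tested genes with the longer motif had a median log2 fold change of 0.0068 in the libraries labelled knockdown, with 0 of 7 called, and the 50 without it -0.084, with 6 called. For g1 the medians were 0.017 with it (0 called) and -0.030 without it (6 called). For g2 the order was the other way, -0.24 with it (1 called) and -0.13 without it (10 called). Of the 21 tested genes with the shorter motif, 1 was called pooled, 3 for g1 and 4 for g2. Of the 36 without it, 5, 3 and 7 were called. Of all tested genes, 19.2% were called pooled, 16.8% for g1 and 23.7% for g2. With 7 genes holding the longer motif, these counts are too small to be a result about it. A match is a description of the letters and does not show that a factor binds there.

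With both guides pooled, 8 of the 63 genes passed the test, for which both an adjusted p no higher than 0.05 and a change of 1.5-fold or more were needed. Differences are given as log2 fold changes of the edgeR fit. Of these, 2 (DNAJA2 and DNAJC14) were higher and 6 (HSPB1, HSPB11, CCT8, CCT7, HSPE1 and DNAJC22) were lower than in gCtl. The share of 12.7% lay under the 19.2% of all tested genes called in this comparison, so the count is not a result about chaperones. By direction, all tested genes gave 8.14% higher and 11% lower. Against gCtl, g1 gave 7 calls, 2 higher and 5 lower (11.1%, with 16.8% of all tested genes, 6.81% higher and 9.95% lower). The g2 libraries gave 14, 4 higher and 10 lower (22.2%, with 23.7%, 10.7% higher and 13% lower). Between g2 and g1, 3 genes were called, 1 higher and 2 lower in g2 (4.76%, with 4.98%, 1.56% higher and 3.42% lower). The libraries of the groups did not overlap for 6 of the 63 genes pooled (15.5% of all tested genes), 13 for g1 (26.6%), 20 for g2 (38%) and 25 between the guides (32.9%). In such bulk samples fewer cells of a type and less RNA per cell cannot be told apart. In none of the 4 comparisons were 46 of the 63 genes called. The counts include DNAJC14 and HSPA1L, which reached the abundance limit only in libraries labelled g1 or g2. The median log2 fold change of the 63 genes was -0.1 pooled, -0.042 for g1 and -0.14 for g2, with 0.02, 0.013 and -0.0016 for all tested genes.

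**Figure D1:**
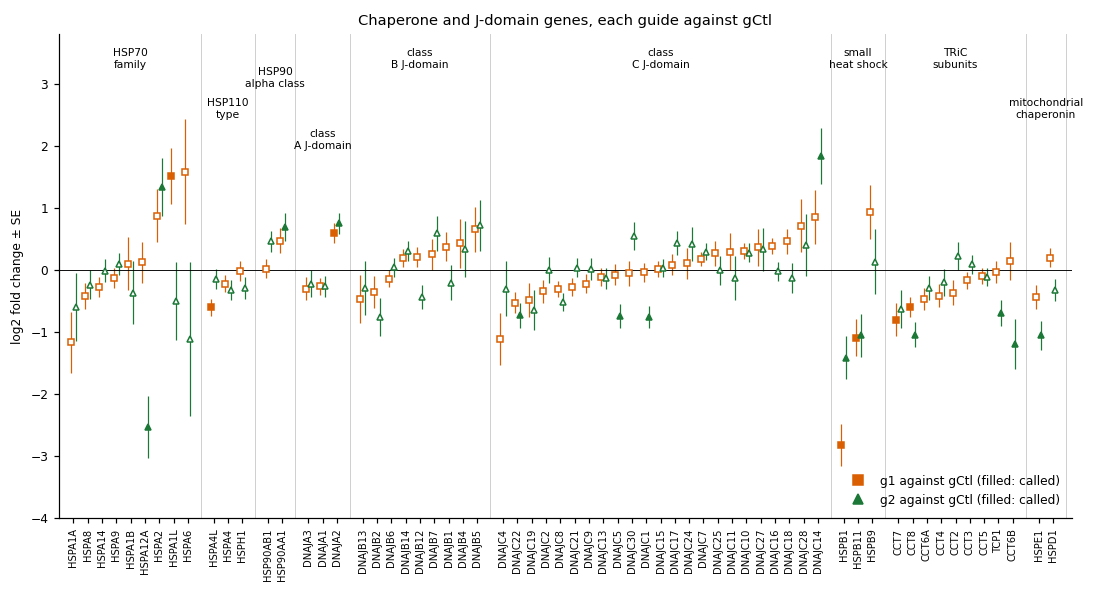
Log2 fold change against gCtl of the 63 tested genes, grouped by family, for the libraries labelled g1 (squares, n = 3) and g2 (triangles, n = 2), with gCtl n = 5. Bars are the SE of the fit and filled symbols passed the test; most values lie within 1 unit of 0, and HSPB1 and HSPA12A reach -2.82 and -2.53.

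Among the HSP70 proteins, the abundant cytosolic forms did not pass the test. Pooled, edgeR called 0 of the 9 tested HSP70 genes, with 2 at an unadjusted p under 0.05, and DESeq2 called 1 (HSPA2). Since edgeR called 19.2% of all tested genes in this comparison, a count over 9 genes is not a result about HSP70. HSPA8, the constitutive HSP70 of the cytosol, stood at 523, 309, 424, 378 and 395 CPM in the gCtl libraries, 339, 225 and 343 in the g1 libraries and 435 and 253 in the g2 libraries. The libraries overlapped throughout, and the pooled difference was -0.35 (SE 0.18, adjusted p = 0.182). HSPA1A and HSPA1B, the main heat-inducible forms, are nearly identical in sequence, so that reads can be divided between them in either way. HSPA1A ranged from 1.9 to 16.9 CPM and HSPA1B from 5.5 to 27.6. Their sum was 19, 12.3, 33.8, 19.2 and 32.7 CPM in the gCtl libraries, 12.8, 13.9 and 29.2 in the g1 libraries and 21.3 and 13.1 in the g2 libraries. No group stood apart in that sum, which gave a pooled log2 fold change of -0.37 (adjusted p = 0.371). HSPA9, the mitochondrial HSP70, differed by -0.034 (SE 0.15), and HSPA14, which works with DNAJC2 at the ribosome, by -0.16 (SE 0.15).

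Of the scarce HSP70 genes, 3 were called with 1 guide only, and each rests on few counts or on 1 library. HSPA12A, a distant relative of HSP70, had 15, 24, 29, 19 and 19 estimated counts in the gCtl libraries, 23, 25 and 39 in the g1 libraries and 2 and 7 in the g2 libraries. Both g2 libraries lay under all others. HSPA12A fell with g2 (log2 change -2.53, SE 0.50, adjusted p = 0.00224) and was lower there than with g1 (log2 change -2.66, SE 0.52, adjusted p = 0.00813), and both calls were lost with protein-coding transcripts alone (-2.47, adjusted p = 0.0541, against gCtl). HSPA1L, an HSP70 best known from testis, had 5, 6, 5, 4 and 6 estimated counts in the gCtl libraries, 25, 7 and 27 in the g1 libraries and 5 and 4 in the g2 libraries. Its g1 difference was 1.52 (SE 0.45), where libraries 1 and 3 were high and library 2 was near gCtl. Only those libraries, at 4.34 and 3.09 RPM, were above the abundance limit of 3 RPM, so that HSPA1L was tested only through the group in which it was high, and its call is given as a description. That call was lost without gCtl libraries 2, 3 or 4 or g1 libraries 1 or 3 (1.22 to 1.54). HSPA2, another form known from testis, had 9.21, 11.5, 17.2, 22.8 and 19.1 estimated counts in the gCtl libraries, 35.5, 22.3 and 56.5 in the g1 libraries and 17.3 and 88.8 in the g2 libraries. It was called higher with g2 (log2 change 1.34, SE 0.46, adjusted p = 0.0436), with g2 library 2 the highest of all and g2 library 1 within the gCtl range. The call was lost without gCtl libraries 1, 2, 3 or 5, g1 libraries 1 or 2 or g2 library 2 (-0.060 to 1.35). HSPA6, which is made almost only under strong stress, had 2, 3, 24, 5 and 11 estimated counts in the gCtl libraries, 2, 3 and 115 in the g1 libraries and 2 and 8 in the g2 libraries. In g1 library 3 it stood far above every other library, and DNAJB1 was highest in the same library at 91.1 CPM, whereas the HSPA1A and HSPA1B sum of 29.2 CPM there lay inside the gCtl range.

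**Figure D2:**
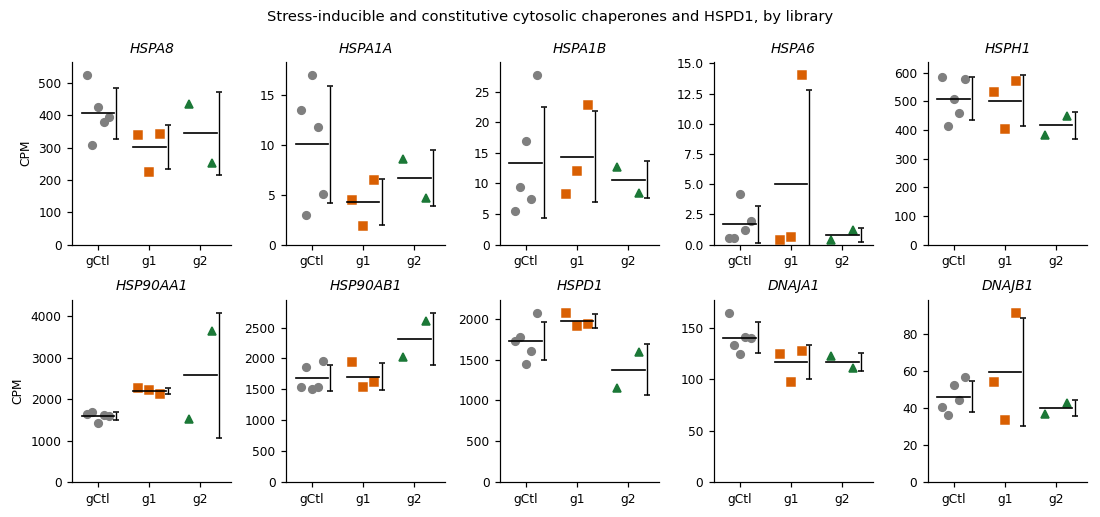
CPM by library of 10 cytosolic and mitochondrial chaperones for gCtl (circles, n = 5), g1 (squares, n = 3) and g2 (triangles, n = 2), with the mean as a line and the SD as a bar. The guide groups overlap with gCtl in each panel apart from HSP90AA1 in g1 and HSP90AB1 and DNAJA1 in g2, and single libraries stand apart for HSPA6 (g1) and HSP90AA1 (g2).

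None of the 3 HSP110 type exchange factors was called pooled by edgeR or DESeq2, and 1 had an unadjusted p under 0.05. With 3 genes, and 19.2% of all tested genes called, that count is not a result about this family. HSPA4L stood at 69.2, 67.4, 52, 65.2 and 57.9 CPM in the gCtl libraries, 37.3, 41.3 and 44.1 in the g1 libraries and 57.2 and 55.1 in the g2 libraries. All g1 libraries were under all gCtl libraries, and HSPA4L fell with g1 (log2 change -0.60, SE 0.14, adjusted p = 0.00766), whereas the g2 libraries lay within the gCtl range (-0.15, adjusted p = 0.517). The difference between the guides was 0.45 (SE 0.17, adjusted p = 0.139). The g1 call was lost without gCtl libraries 1 or 2 or g1 library 1 (-0.57 to -0.54), and with protein-coding transcripts alone (-0.55). HSPH1, the heat-inducible member, differed by -0.12 (SE 0.15, adjusted p = 0.593) and HSPA4 by -0.26 (SE 0.13, adjusted p = 0.147).

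Of the HSP90 genes, 1 was called, with 1 guide. HSP90AA1, the inducible form, stood at 1639.9, 1692, 1433, 1613 and 1584 CPM in the gCtl libraries, 2259.8, 2228 and 2127 in the g1 libraries and 1514 and 3637 in the g2 libraries. Every g1 library lay above every gCtl library, and of the g2 libraries 1 was within the gCtl range and the other above all. The pooled difference (log2 change 0.56, SE 0.19, adjusted p = 0.0417) missed the fold of 1.5 and the g1 difference missed the adjusted p (0.47, SE 0.20, adjusted p = 0.113). HSP90AA1 was called higher with g2 (log2 change 0.69, SE 0.23, adjusted p = 0.0346), and without g2 library 2 that value was -0.068 (adjusted p = 0.831). Over single libraries the g2 call was lost without gCtl libraries 1, 2, 3 or 4 or g2 library 2 (-0.068 to 0.72), and with protein-coding transcripts alone the value was 0.063. In g2 library 2, 73.5% of the gene's counts were assigned to HSP90AA1-003, a transcript annotated for nonsense-mediated decay, against 46% to 56.9% in the others. HSP90AB1, the constitutive form, stood at 1546, 1860.5, 1505, 1541 and 1961 CPM in the gCtl libraries, 1949, 1542 and 1615 in the g1 libraries and 2020 and 2612 in the g2 libraries. Both g2 libraries were above the gCtl libraries and the g1 libraries were among them, with 0.46 for g2 (SE 0.17, adjusted p = 0.0597).

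Of the J-domain proteins, class A carries the full domain order of bacterial DnaJ. Its member DNAJA2 was higher with each guide. It stood at 49, 42.2, 41.5, 38.3 and 50.1 CPM in the gCtl libraries, 71.8, 50.8 and 77.1 in the g1 libraries and 70.3 and 78.5 in the g2 libraries, and the gCtl values were under every other value. DNAJA2 (chr16:46955362-46973788) rose in the pooled comparison (log2 change 0.66, SE 0.14, adjusted p = 0.00462). It also rose with g1 (0.59, adjusted p = 0.014) and g2 (0.75, adjusted p = 0.00586). Scaled by library totals, the pooled and g1 values of 0.56 and 0.55 were short of 1.5-fold. The g1 call was lost without gCtl libraries 2, 3 or 4, g1 libraries 1 or 3 or g2 libraries 1 or 2 (0.46 to 0.58) and the g2 call without g2 library 2 (0.67). DNAJA2-002, a transcript annotated for nonsense-mediated decay, took 45.8, 39.3, 38.2, 28.8 and 52.7% in the gCtl libraries, 76.2, 55.9 and 67 in the g1 libraries and 39.2 and 60.8 in the g2 libraries of the gene's counts. All g1 libraries lay above gCtl in this share and 1 of the g2 libraries within it. With protein-coding transcripts alone the values were 0.12 pooled, -0.25 for g1 and 0.53 for g2, none of them called. DNAJA1, a main partner of HSPA8, stood at 164, 133, 124, 141 and 139.9 CPM in the gCtl libraries, 125, 97.5 and 127 in the g1 libraries and 123 and 110.5 in the g2 libraries, with a pooled difference of -0.27 (SE 0.13, adjusted p = 0.136). The mitochondrial DNAJA3 differed by -0.27 (SE 0.16).

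In class B, 0 of 9 tested genes were called in any of the 4 comparisons by edgeR or DESeq2. Of all tested genes, edgeR called 19.2% pooled, 16.8% with g1, 23.7% with g2 and 4.98% between the guides. With 9 genes, the counts in class B are therefore not a result about it. At an unadjusted p under 0.05 there were 2 pooled, 0 with g1, 2 with g2 and 1 between the guides. DNAJB1, the heat-inducible partner of HSPA1A, stood at 40.5, 36.4, 52.3, 44.3 and 56.8 CPM in the gCtl libraries, 53.8, 33.3 and 91.1 in the g1 libraries and 36.8 and 42.9 in the g2 libraries. Apart from g1 library 3 these values overlapped, and the pooled difference was 0.17 (SE 0.24, adjusted p = 0.642). Its locus overlaps the gene TECR, and reads from the overlap cannot be told apart without strand. DNAJB6, which keeps polyglutamine and other proteins from aggregating, stood at 83.7, 67.6, 66.4, 62.3 and 68.3 CPM in the gCtl libraries, 67.5, 58.2 and 63.4 in the g1 libraries and 79.3 and 64 in the g2 libraries, with a pooled difference of -0.067 (SE 0.13, adjusted p = 0.737). With protein-coding transcripts alone DNAJB6 passed the test, at -0.67 (adjusted p = 0.0298). DNAJB5 differed by 0.68 (adjusted p = 0.132), and a pseudogene named for it held 67.5% of the counts of both. With that pseudogene added the value was 0.93 and passed the test (adjusted p = 0.0172).

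Class C holds the J-domain proteins with no further domain in common. Of 23 tested, 2 were called pooled, 0 with g1 and 4 with g2. These shares of 8.7%, 0% and 17.4% lay under the 19.2%, 16.8% and 23.7% of all tested genes. For g1, 6 had an unadjusted p under 0.05 in edgeR, and DESeq2 called 0. DNAJC22 stood at 21.5, 25.2, 20.1, 19.7 and 21.1 CPM in the gCtl libraries, 15.2, 15.6 and 14.1 in the g1 libraries and 11.8 and 14 in the g2 libraries. All gCtl libraries were above the rest, and DNAJC22 (chr12:49346917-49357546) fell pooled (log2 change -0.61, SE 0.15, adjusted p = 0.0111) and with g2 (-0.74, adjusted p = 0.0155), while the g1 difference of -0.53 was not called. The pooled call was lost without gCtl library 2 or g2 library 1 (-0.56 to -0.54) and the g2 call without g2 library 1 (-0.63). With protein-coding transcripts alone the pooled value of DNAJC22 was -0.55, short of 1.5-fold, and the g2 call was kept (-0.68). DNAJC14 had 7.71, 5.57, 14.8, 7.5 and 7.39 estimated counts in the gCtl libraries, 11.7, 25.5 and 20.7 in the g1 libraries and 42.8 and 35.4 in the g2 libraries. The g2 difference was 1.84 (SE 0.45) and the pooled one 1.33 (SE 0.42), with both g2 libraries and g1 library 2 above every gCtl library in CPM. Those 3 libraries alone were above the abundance limit of 3 RPM (4.84 to 6.98, with gCtl at 2.66 or less), so that DNAJC14 too was tested only through libraries in which it was high, and its calls are a description. The pooled call was lost without gCtl libraries 1, 2, 4 or 5, g1 library 2 or g2 libraries 1 or 2 (1.05 to 1.38) and the g2 call without g2 library 1 (1.51). DNAJC1, a J-domain protein of the endoplasmic reticulum membrane, stood at 108, 96.9, 115, 108 and 113 CPM in the gCtl libraries, 98, 88.4 and 128 in the g1 libraries and 56.1 and 72.1 in the g2 libraries. Both g2 libraries lay under all others, and DNAJC1 fell with g2 (log2 change -0.75, SE 0.18, adjusted p = 0.00646) but not with g1 (-0.042, adjusted p = 0.871), and the guides differed (log2 change -0.71, SE 0.19, adjusted p = 0.0415). That difference was not called without gCtl libraries 1, 2, 3 or 4, g1 libraries 1 or 3 or g2 library 1 (-0.76 to -0.52). DNAJC5, the cysteine string protein of secretory vesicles, stood at 124, 148, 107, 104 and 151 CPM in the gCtl libraries, 138, 109 and 114 in the g1 libraries and 65.3 and 85.6 in the g2 libraries. It too fell with g2 (log2 change -0.75, SE 0.20, adjusted p = 0.0111), a call lost without g2 library 1 (-0.58). The difference between the guides was -0.68 (SE 0.21, adjusted p = 0.0721).

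**Figure D3:**
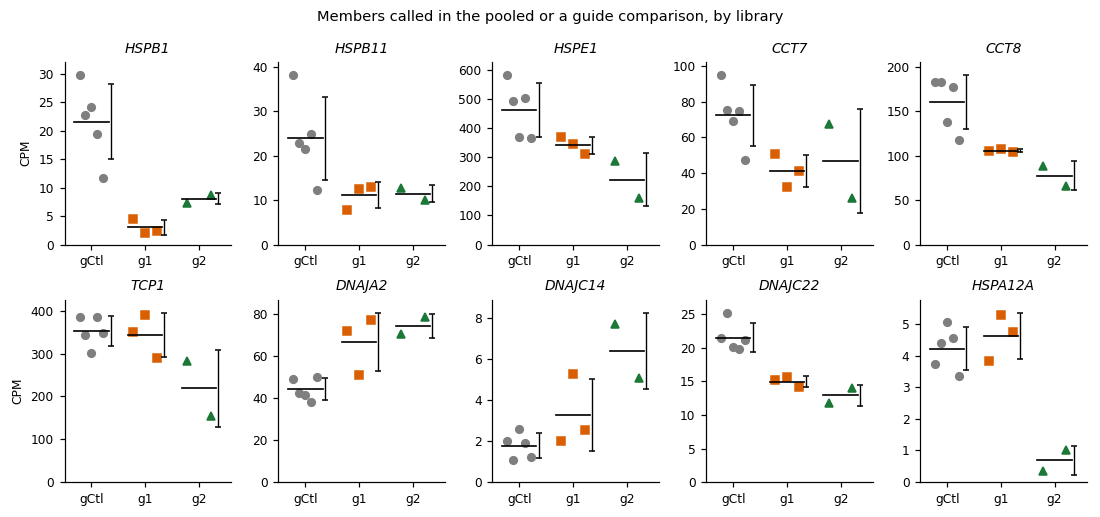
CPM by library of 10 genes called in at least 1 comparison, for gCtl (circles, n = 5), g1 (squares, n = 3) and g2 (triangles, n = 2), with the mean as a line and the SD as a bar. HSPB1 lies at 11.8 CPM or more in gCtl and at 8.72 or less elsewhere, and HSPA12A is low in both g2 libraries alone.

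The small heat shock protein HSPB1 (HSP27, chr7:76302544-76304295 on GRCh38, plus strand), which binds unfolded proteins and actin filaments, showed the largest pooled decrease of the 63 genes. It stood at 29.7, 22.8, 24.2, 19.5 and 11.8 CPM in the gCtl libraries, 4.5, 2.11 and 2.44 in the g1 libraries and 7.35 and 8.72 in the g2 libraries. Every gCtl library lay above every library labelled knockdown, and the lowest gCtl library was number 5. HSPB1 fell pooled (log2 change -2.09, SE 0.35, adjusted p = 9.95e-04), with g1 (log2 change -2.82, SE 0.33, adjusted p = 9.44e-05) and with g2 (log2 change -1.42, SE 0.34, adjusted p = 0.00736). The g1 libraries were lower than the g2 libraries, a difference at the edge of the test (log2 change 1.41, SE 0.39, adjusted p = 0.0498) that was not called without gCtl libraries 2, 3 or 4, g1 libraries 2 or 3 or g2 libraries 1 or 2 (1.24 to 1.53). Without gCtl library 5 the pooled value was -2.26. HSPB1 had the smallest mean transcript length of the 63 genes, 689 bases. That mean is weighted by the counts assigned to each transcript, most of them to HSPB1-003 of 527 bases. With the length trend removed the pooled value was -1.71 (adjusted p = 0.00282). The pooled and g1 calls were kept under each of 25 alternatives. In the g1 libraries HSPB1 had 27.2, 9.54 and 20 estimated counts. HSPB1-002, a transcript annotated for nonsense-mediated decay, took 6.22% to 11.5% of the gene's counts in gCtl and 18.5% to 73.1% in the libraries labelled knockdown. With protein-coding transcripts alone the pooled value was -2.48 (adjusted p = 0.00344). HSPB11, now named IFT25 as a subunit of the transport complex of cilia, stood at 38, 22.8, 21.5, 24.8 and 12.1 CPM in the gCtl libraries, 7.66, 12.4 and 13 in the g1 libraries and 12.7 and 10 in the g2 libraries. The values overlapped only through gCtl library 5, and HSPB11 fell pooled (log2 change -1.08, SE 0.26, adjusted p = 0.00764). It fell with g1 (-1.09, adjusted p = 0.0179), a call lost without g1 library 1 (-0.89), and with g2 (-1.06, adjusted p = 0.0351), a call lost without gCtl libraries 1, 2 or 4 or g2 libraries 1 or 2 (-1.24 to -0.83). With the length trend removed both single-guide calls were lost (g1 -0.81, adjusted p = 0.0523). With protein-coding transcripts alone the g2 call of HSPB11 was lost (-0.93, adjusted p = 0.104) and its pooled and g1 calls were kept. HSPB9 rests on at most 45.1 counts in a library and was not called. The other HSPB genes of the rule, HSPB2, HSPB3, HSPB6, HSPB7 and HSPB8, had at most 3 counts in any library.

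Of the 8 ubiquitous subunits of TRiC, 2 were called lower pooled and 0 higher (25%, with 19.2% of all tested genes called and 11% called lower). All 8 had negative pooled values (median log2 fold change -0.3, against 0.02 for all tested genes), but 5 with the length trend removed and 6 with protein-coding transcripts alone. CCT8 stood at 183, 183, 138, 178 and 118 CPM in the gCtl libraries, 105, 108 and 104 in the g1 libraries and 88.9 and 65.9 in the g2 libraries. Every library labelled knockdown lay under every gCtl library. CCT8 (chr21:29055805-29073797) fell pooled (log2 change -0.76, SE 0.17, adjusted p = 0.00511) and with g2 (-1.05, adjusted p = 0.00176). It also fell with g1 (-0.60, adjusted p = 0.0203), a call lost without gCtl libraries 1, 2 or 4 or g1 libraries 1, 2 or 3 (-0.61 to -0.54). With the length trend removed the g1 call of CCT8 was lost too, whereas its pooled and g2 calls were kept. The transcript with the most counts was CCT8-005, which has a retained intron and took 70, 76.5, 69.4, 66.8 and 60.4% in the gCtl libraries, 60.3, 47.2 and 54 in the g1 libraries and 46 and 38.5 in the g2 libraries. With protein-coding transcripts alone the direction turned, to 0.26 pooled, 0.36 for g1 and 0.11 for g2, none of them called. CCT7 stood at 94.7, 75.6, 69.1, 75.1 and 47.3 CPM in the gCtl libraries, 50.5, 32.3 and 41 in the g1 libraries and 67.4 and 26.3 in the g2 libraries. Its groups overlapped through gCtl library 5 alone, and CCT7 (chr2:73233420-73253021) fell pooled (log2 change -0.73, SE 0.23, adjusted p = 0.0315) and with g1 (-0.80, adjusted p = 0.042). The pooled call was lost without gCtl libraries 1, 2, 3 or 4, g1 libraries 2 or 3 or g2 library 2 (-0.75 to -0.60) and the g1 call without gCtl libraries 1, 2, 3 or 4 or g1 libraries 1, 2 or 3 (-0.97 to -0.66). Both were also lost with the length trend removed (pooled -0.61, adjusted p = 0.0564). With protein-coding transcripts alone the g1 call of CCT7 was lost (-0.83, adjusted p = 0.0535) and the pooled call was kept. TCP1, the alpha subunit, stood at 385, 344, 301, 387 and 349 CPM in the gCtl libraries, 350.2, 391 and 289 in the g1 libraries and 283 and 155 in the g2 libraries. It was called lower with g2 (log2 change -0.69, SE 0.21, adjusted p = 0.0254), a call lost without gCtl library 4 or g2 library 2 (-0.66 to -0.31). The remaining ubiquitous subunits had pooled values from -0.40 (CCT6A) to -0.061 (CCT3), none called. CCT6B, the testis counterpart of CCT6A, was called lower with g2 on 21.6, 28, 34, 17.5 and 22.3 estimated counts in the gCtl libraries, 32.4, 29.2 and 39.7 in the g1 libraries and 16.2 and 10.1 in the g2 libraries, a call lost without gCtl libraries 1, 2 or 3 or g2 library 2 (-1.18 to -0.77).

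Of the mitochondrial chaperonin, the lid HSPE1 was called and the barrel HSPD1, which shares its promoter region, was not, and the difference between them was not tested. HSPE1 stood at 582, 493, 371, 505 and 367 CPM in the gCtl libraries, 369, 344 and 311 in the g1 libraries and 288 and 159 in the g2 libraries. Only g1 library 1 and gCtl library 5 overlapped, at nearly the same level, and HSPE1 (chr2:197499994-197503457) fell pooled (log2 change -0.66, SE 0.20, adjusted p = 0.0297) and with g2 (-1.05, adjusted p = 0.00479). Its transcripts are short, and with the length trend removed the pooled call was lost (-0.38, adjusted p = 0.156). The pooled call was also lost without gCtl libraries 1, 2 or 4 or g2 library 2 (-0.63 to -0.51), and the g2 call without g2 library 2 (-0.68). HSPD1 stood at 1726, 1775, 1448, 1598 and 2068 CPM in the gCtl libraries, 2063, 1915 and 1930.4 in the g1 libraries and 1153 and 1595 in the g2 libraries, with a pooled difference of 0.0068 (SE 0.17, adjusted p = 0.981). The g1 libraries lay at the upper end of the gCtl range and 1 g2 library below it, with -0.52 between g2 and g1 (SE 0.19, adjusted p = 0.137).

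Transcript length was related to the values of all genes. A gene's length was the mean over its transcripts, weighted by their estimated counts in all libraries. In the pooled comparison the median log2 fold change was -0.19 in the 20% of tested genes with the shortest transcripts (207 to 1524 bases) and 0.15 in the 20% with the longest. For those shortest genes, the median deviation from a gene's mean over all libraries, on log2(CPM + 1), was 0.019 in gCtl library 5. It was 0.065 to 0.179 in the other gCtl libraries and -0.168 to -0.011 in the libraries labelled knockdown. Of the 63 genes, 17 lay among the shortest, with a median of -0.35, and 7 among the longest, with 0.024. HSPB1, HSPB11, HSPE1, CCT7 and CCT8, which are 5 of the 6 genes called lower, were all among the shortest. The part of length in these differences was not tested beyond the values with the trend removed.

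For HSPA8 and HSPE1 the division of reads among transcripts set gCtl library 5 apart, as was seen after the values were known. This did not hold for every transcript, since DNAJB6-004 took 16.4% of the DNAJB6 counts in that library. Its share was 15.47% to 18.55% in the other gCtl libraries and 19.54% to 34.39% in the libraries labelled knockdown. HSPB1-002, at 11.5%, also lay within the other gCtl libraries (6.22% to 11.54%). It was not limited to HSPA8 and HSPE1 either. CCT7-202 took 84.7% in gCtl library 5, 24.2% to 58.5% in the other gCtl libraries and 50.8% to 79.8% in the libraries labelled knockdown. For HSP90AA1-003 these shares were 54.8%, 46% to 51% and 53.65% to 73.5%. HSPA8-003 took 78, 69.7, 71.1, 80.4 and 7.14% in the gCtl libraries, 4.83, 1.25 and 10.5 in the g1 libraries and 27.4 and 7.49 in the g2 libraries. Thus 4 gCtl libraries were at 69.7% or more, and the gCtl library 5 lay within the range of the libraries labelled knockdown. HSPE1-004, a short transcript, took 2.22, 0.849, 5.05, 5.6 and 35.7% in the gCtl libraries, 48.8, 33.7 and 32.2 in the g1 libraries and 15.1 and 59.2 in the g2 libraries. Here again gCtl library 5 lay among the libraries labelled knockdown. For DNAJB6 the share of its most abundant transcript, DNAJB6-014, which is annotated as not coding, was 29.3, 35, 34.1, 32.2 and 39% in the gCtl libraries, 45.7, 33.1 and 35.4 in the g1 libraries and 35.2 and 27.3 in the g2 libraries. The means of 33.9 ± 3.58% (SD, n = 5) and 35.4 ± 6.66% (SD, n = 5) differed by less than the spread (exact two-sided permutation p = 0.69). The long protein-coding form DNAJB6-001, which encodes the nuclear isoform, took 40.8, 46.3, 36.2, 53 and 24% in the gCtl libraries, 28.7, 22.3 and 36.5 in the g1 libraries and 2.07 and 14.7 in the g2 libraries of the counts it shared with the short form DNAJB6-002. Both g2 libraries lay under all others, while the g1 and gCtl libraries overlapped. The lowest gCtl share was that of library 5, which lay within the range of the g1 libraries. The shares other than that of DNAJB6-014 were looked at after the data were seen, so they are given without a test.

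**Figure D4:**
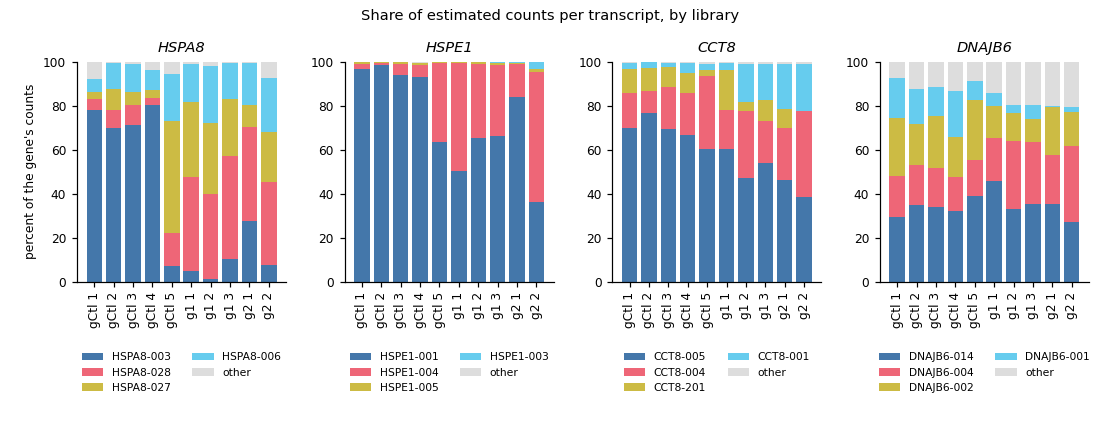
Percent of each gene's estimated counts assigned to its 4 most abundant transcripts, for HSPA8, HSPE1, CCT8 and DNAJB6, in each library. HSPA8-003 takes 69.7% to 80.4% in gCtl libraries 1 to 4 and 1.25% to 27.4% in the others, gCtl library 5 included.

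Other genes of the same pathways were taken as lists. None of the 3 tested genes of heat shock transcription factors and their regulator HSBP1 was called pooled by edgeR or DESeq2, and 2 had an unadjusted p under 0.05. Of all tested genes, edgeR called 19.2% pooled. HSF1, the master factor of the heat shock response, stood at 31.2, 28.1, 23.7, 23.6 and 23.6 CPM in the gCtl libraries, 17, 21.5 and 15.1 in the g1 libraries and 21.5 and 14 in the g2 libraries. The gCtl values were the 5 highest, but the fold was under 1.5 (log2 change -0.55, SE 0.17, adjusted p = 0.0287). HSF2 gave -0.56 pooled (SE 0.18, adjusted p = 0.0328) and was called lower with g2. Of 24 tested co-chaperones of HSP70 and HSP90, 0 were higher and 5 lower, a share of 20.8% near the 19.2% of all tested genes. FKBP5, an HSP90 partner that restrains the glucocorticoid receptor, fell by 0.79 on the log2 scale (SE 0.14, adjusted p = 0.00171), and the other 4 were CHORDC1 (-0.61), TOMM34 (-0.78), UNC45A (-0.81) and the HSP90 ATPase activator AHSA1 (-0.66). Of 12 prefoldin subunits and other TRiC partners (16.7% called), PDCL3 was higher (0.75) and UXT lower (-1.60, SE 0.32, adjusted p = 0.00309).

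Among the clients of TRiC, 5 of 12 were called lower pooled and 0 higher. This share of 41.7% compares with 19.2% of all tested genes called and 11% called lower. With g1, 6 were called lower (50%, with 16.8% of all tested genes called) and 8 of the 12 values were negative. With g2, 7 were called lower (58.3%, with 23.7%) and all 12 were negative. TUBA1C and TUBB4B were called lower with g2 than with g1. Clients not called pooled included TUBB, TUBA1C, TUBB4B and ACTB. The lists of this paragraph were chosen with earlier results of these data known, so their shares are a description and not independent evidence. For the clients of TRiC no values without 1 library or with the length trend removed are given. The tubulin gene TUBB6 stood at 43.7, 46.3, 39.6, 49.3 and 42.6 CPM in the gCtl libraries, 14.7, 12.7 and 25.2 in the g1 libraries and 12.9 and 6.69 in the g2 libraries. The groups did not overlap, and TUBB6 fell pooled (log2 change -1.61, SE 0.25, adjusted p = 5.78e-04). TUBB2A (-1.37), the mitotic activator CDC20 (-1.30), gamma-tubulin TUBG1 (-1.18) and gamma-actin ACTG1 (-0.95) also fell. Of 18 genes that heat shock raises strongly in other systems, 5 were lower pooled (HSPB1, HSPE1, CHORDC1, AHSA1 and SERPINH1) and 0 higher, a share of 27.8% against 19.2% of all tested genes called and 11% called lower. The list had a median of -0.31 against 0.02 for all tested genes. SERPINH1, the collagen chaperone, stood at 45.5, 34.7, 47.1, 48.4 and 24.8 CPM in the gCtl libraries, 17, 14.6 and 20.3 in the g1 libraries and 16.7 and 21.7 in the g2 libraries and fell (log2 change -1.14, SE 0.19, adjusted p = 9.92e-04). Of 9 tested chaperones of the endoplasmic reticulum, including those the rule leaves out, edgeR called 0 pooled (19.2% of all tested genes) and DESeq2 0. An unadjusted p under 0.05 was found for 1 of the 9. Here 1 was called lower with g2 (DNAJB11), and HSPA5 was called lower with g2 than with g1.

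The 14 genes that were not tested were near or below what these depths can show. DNAJB8, DNAJC25-GNG10, HSPB2, HSPB6 and HSPB7 had 0 counts in every library, which allows up to 3 counts per library. HSPA12B, CCT8L2, HSPB3 and HSPB8 had at most 3 counts in any library, DNAJC5B and DNAJC5G about 3 or 4 at most, and DNAJA4 at most 9. DNAJC6 (auxilin) and DNAJC12 came closest to the limit, each being above 3 RPM in 1 library where 2 were asked for. DNAJC6 had 9.04, 16.1, 8.05, 8.03 and 8.06 estimated counts in the gCtl libraries, 9.15, 3 and 3.02 in the g1 libraries and 0 and 1.01 in the g2 libraries, and the libraries with the lowest counts were those of g2. DNAJC12 had 13.5, 0, 7.73, 3.79 and 3.46 estimated counts in the gCtl libraries, 15, 8.03 and 19.3 in the g1 libraries and 7.53 and 18.9 in the g2 libraries. Just inside the limit, HSPA6 and HSPA1L passed with 2 libraries each above 3 RPM. For HSPA1L both were g1 libraries, with gCtl at 1.3 RPM or less, and for HSPA6 they were gCtl library 3 and g1 library 3.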

How the data were processed

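RNA of 10 Caco-2 libraries was sequenced as QuantSeq 3′ libraries. The authors pseudoaligned reads with kallisto (listed as version 42.5 in the submitters' processing notes) to GENCODE 24 transcripts and deposited estimated counts per transcript, not normalized or pooled. Here the estimated counts were summed per gene, rounded and fitted with edgeR 4.0.16 (TMM, quasi-likelihood test) in R 4.3.3, with full library totals of 3838803 to 8730468 as depth. Protein-coding genes above 3 RPM in 20% or more of the libraries were tested. A call needed a p of 0.05 or less after Benjamini-Hochberg adjustment and a 1.5-fold change. g1 and g2 were compared with gCtl pooled, and singly and with each other in a fit of 3 groups. Comparisons with gCtl share its libraries. Single values were compared by exact permutation (scipy 1.17.1). Low counts give little precision, and floors cover counting error only.

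The members and lists were chosen with earlier results of these data known. Named genes were a set of 13, every member called in a comparison, up to 4 per list with the smallest pooled p, LHFPL3-AS2 and members near the abundance limit. Outside this rule, and after their values were seen, HSPA4, HSPA9, HSPA14, DNAJA3, DNAJB5, HSPB9, CCT3, CCT6A, AHSA1, TUBG1, TUBB, TUBA1C, TUBB4B, ACTB and HSPA5 were named. Alternatives were DESeq2 1.42.0, glmTreat, limma 3.58.1, other scalings, filters and transcript sets, a removed length trend and each library left out. In simulated data, edgeR recovered 98.5% of 200 genes changed 3-fold among 11640 in the pooled comparison, with 93.5% (g1), 88.5% (g2) and 90% (between guides) in the others. The 200 genes were drawn from the more abundant ones only, and these data held no length trend. The rates therefore do not apply to scarce genes or to changes under 3-fold. Gene positions are from GENCODE 29 on GRCh38, and promoter sequences from RefSeq, GRCh38.p14.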

Additional observations from a re-analysis of the deposited data

Results flagged for a closer look

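Among 5 gCtl libraries, DNAJB6 stood at 83.7 CPM in library 1, far from 62.3 to 68.3 in the other 4, by Dixon's test. It was the only such value among 26 named chaperone genes, and chance alone flags about 1 in 20 groups.

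The test of the difference between the guides called 3 genes. HSPB1 was higher under g2 (log2 change 1.41, SE 0.39, adjusted p = 0.0498), although both were under gCtl. DNAJC1 was lower under g2 (log2 change -0.71, SE 0.19, adjusted p = 0.0415), as was HSPA12A (log2 change -2.66, SE 0.52, adjusted p = 0.00813). The HSPB1 and DNAJC1 differences lay at the edge of the threshold and were each lost when any of 7 libraries was left out. For HSPB1 this was so without gCtl libraries 2, 3 or 4, g1 libraries 2 or 3 or g2 libraries 1 or 2 (1.24 to 1.53), and for DNAJC1 without gCtl libraries 1, 2, 3 or 4, g1 libraries 1 or 3 or g2 library 1 (-0.76 to -0.52). HSPA12A rests on 2 and 7 counts in the g2 libraries.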

How the results depend on the processing

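With 1 library left out at a time, the number of chaperone genes called ranged from 4 to 8 pooled, 2 to 7 for g1, 9 to 15 for g2 and 1 to 7 for g2 against g1, where 8, 7, 14 and 3 were reported. Counts moved by over 1.5 times without gCtl library 1 (5), gCtl library 2 (4) or g2 library 2 (5) pooled. For g1 this held without gCtl libraries 1 (4), 2 (3), 3 (4) or 4 (3) or g1 libraries 1 (2) or 3 (3), for g2 without g2 library 2 (9), and between the guides without gCtl libraries 2, 3 or 4 or g1 library 3 (1 each) or g2 library 1 (7). Under glmTreat the counts were 1, 1, 2 and 1. With the length trend removed g1 gave 4, with protein-coding transcripts alone g2 gave 8 and g2 against g1 gave 1, and limma gave 6 on log2(RPM + 1) and 7 on log2(RPM + 0.1) for g2 against g1. With the length trend removed and gCtl library 5 left out, a setting added after the data were seen, the counts were 7, 7, 13 and 4. Scaling by library totals moved the median of all tested genes by up to -0.16 (g2) and gave 1 higher and 6 lower pooled, 1 and 5 for g1, 2 and 13 for g2 and 0 and 4 for g2 against g1, against 2 and 6, 2 and 5, 4 and 10 and 1 and 2 as reported. With the length trend removed the split was 3 and 4 pooled and 2 and 2 for g1. DESeq2 called 9, 7, 14 and 4.

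The share of DNAJB6-014 differed by 1.45 percentage points, and by -1.15 to 3.46 without 1 library. DNAJB6-014 is not coding and has no share among protein-coding transcripts. With those alone, the share of the most abundant transcript that remained differed by -0.18. LHFPL3-AS2 kept its direction, from 0.29 to 0.63 without 1 library.

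Direction turned, with protein-coding transcripts alone, for CCT8 (0.26 pooled, 0.36 for g1 and 0.11 for g2), DNAJA2 with g1 (-0.25) and HSPH1 pooled (0.11), while DNAJB6 became a call. The calls of HSPA1L with g1, HSPA2 and CCT6B with g2 and DNAJC1 between the guides were lost there with their direction kept. Other pooled values that turned were those of DNAJB1 (-0.0074 and -0.0089 with limma), HSPA8 (0.15 with limma on log2(TPM + 1)), HSPA1B (0.40 without the length trend and gCtl library 5) and HSPD1 (-0.069 with library totals, -0.10, -0.10 and -0.12 with limma on the 3 log scales). Without 1 library the pooled values ranged from -0.15 to 0.29 for DNAJB1, -0.15 to 0.0066 for DNAJB6, -0.40 to 0.37 for HSPA1B and -0.064 to 0.11 for HSPD1, and the g2 values from -0.068 to 1.19 for HSP90AA1 and -0.060 to 2.01 for HSPA2. The cause was not tested. Of 61 further pairs of a named gene and a comparison that were not called, 25 changed sign under an alternative.

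No paired analysis was possible because the labels carry no replicate numbers. Genes with few counts, such as HSPA12A, HSPA1L, HSPA6 and DNAJC14, are limited by depth.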
